A study of Macaca mulatta with 15 samples.

Results

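Effector cytokines and chemokines are the secreted and membrane-bound signals with which T cells act on other cells. A list of 10 such genes was looked up by symbol in the count table, and 9 of the 10 were found among its 34884 genes: the chemokines CCL5, CCL3 and XCL1, the cytokines IFNG, TNF, IL2 and CSF1, and the lymphotoxins LTA and LTB. No row carried the symbol CCL4. The row named CCL4L1 (ENSMMUG00000020102), for which the RefSeq gene table of assembly T2T-MMU8v2.0 gives CCL4 as a synonym, is therefore described beside the 9 under its own name and is not counted among them. All 9 passed the filter on low counts, which kept 14814 genes, but IL2 reached 10 counts in only 3 of 15 libraries.

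The 15 RNA-seq libraries hold T cells from the peripheral blood of 2 healthy rhesus macaques (Macaca mulatta), RhM22 and RhDBCb. Each is 1 of 4 subsets, CD8 memory, CD8 naive, CD4 memory or CD4 naive, drawn after or before treatment with 2-hydroxypropyl-beta-cyclodextrin (Kleptose), a sugar ring that binds cholesterol. The treated draws followed subcutaneous dosing of the animals with a 15% (w/w) solution, 1 ml/kg/day, over at most 120 days, and the draws before it were untreated. Every subset and time has 1 library from each animal, except CD8 naive after treatment, which is represented here by RhM22 alone. No untreated animal was followed over the same time, so treatment and time cannot be told apart. Age, genotype and the way in which the subsets were separated are not given in the sources used here.

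Naive T cells have not yet met their antigen and make few effector molecules, whereas memory T cells carry open effector loci and answer quickly. CCL3, CCL4 and CCL5 recruit leukocytes to inflamed tissue, and XCL1 draws cross-presenting dendritic cells through XCR1. IFNG activates macrophages and antigen presentation, TNF drives inflammation, IL2 is the T cell growth factor, CSF1 sustains macrophages, and LTA and LTB build the lymphotoxin that organises lymphoid tissue. Transcripts of several of them, TNF and IFNG among them, are held low in resting cells and turn over fast after stimulation.

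Library totals ranged from 44414963 to 71787211 counts, so that 1 count was worth 0.0129 to 0.0233 CPM (the count as a share of the TMM-scaled library total). Lineage labels held: CD8A ranged from 665 to 861 CPM among CD8 libraries, and no CD4 library exceeded 3.93 CPM. All 4 libraries of RhDBCb before treatment stood apart in early response and platelet markers. The 19 early response markers summed to 16900 to 39600 CPM there, and to 8230 to 15900 CPM in all other libraries. The 11 platelet markers summed to 5.38 to 7.4 CPM there, and to 15.7 to 102 CPM in all others. Both CD8 libraries of that draw also stood apart in single naive or memory markers. Its CD8 naive library had the naive marker LEF1 at 763 CPM, against 661 and 638 CPM in the other CD8 naive libraries, but S100A4, a memory marker, at 105 CPM against 31.9 and 39.5 CPM. Summed, the 4 memory markers found were lowest in that library, at 1360 CPM against 1870 and 1890 CPM. The 5 naive markers were highest, at 13600 CPM against 9220 and 11400 CPM. S100A4 thus went against the sum of the list it comes from. The CD8 memory before library of RhDBCb had S100A4 at 2210 CPM, against 327 to 459 CPM in the other CD8 memory libraries, and LEF1 at 72.1 CPM against 100 to 225 CPM. Values without these CD8 libraries are given beside the subset differences that they moved most. Such values keep the CD4 libraries of that draw. Since the libraries come from 4 draws of 2 animals, p-values measure the spread among these libraries. Where libraries of 2 subsets are said not to overlap, these shares of all tested genes did the same. With the first subset higher, the share was 11.3% for CD8 memory over CD8 naive and 6.32% for CD4 memory over CD4 naive. It was 5.48% for CD8 memory over CD4 memory and 4.34% for CD8 naive over CD4 naive.

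Levels were compared between genes per length, as FPKM. LTB, the membrane anchor of the lymphotoxin heterotrimer, stood far above the rest at a mean of 339 FPKM over the 15 libraries, with a range of 111 to 665 FPKM, higher than 99.7% of the genes tested. CCL5 followed with a mean of 8.95 FPKM and a range of 0.114 to 36.1 FPKM, and CSF1 with a mean of 5.55 FPKM and a range of 0.231 to 20.7 FPKM. TNF averaged 2.45 FPKM and LTA 0.815 FPKM. Medians of these ran in another order, at 3.83 FPKM for CSF1, 1.35 for TNF, 0.797 for LTA and 0.615 for CCL5. XCL1, IFNG and CCL3 averaged 0.3, 0.296 and 0.28 FPKM. IL2 was lowest, at a mean of 0.0177 FPKM and 71 counts over all libraries. CCL4L1 averaged 17.4 FPKM.

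**Figure D1:**
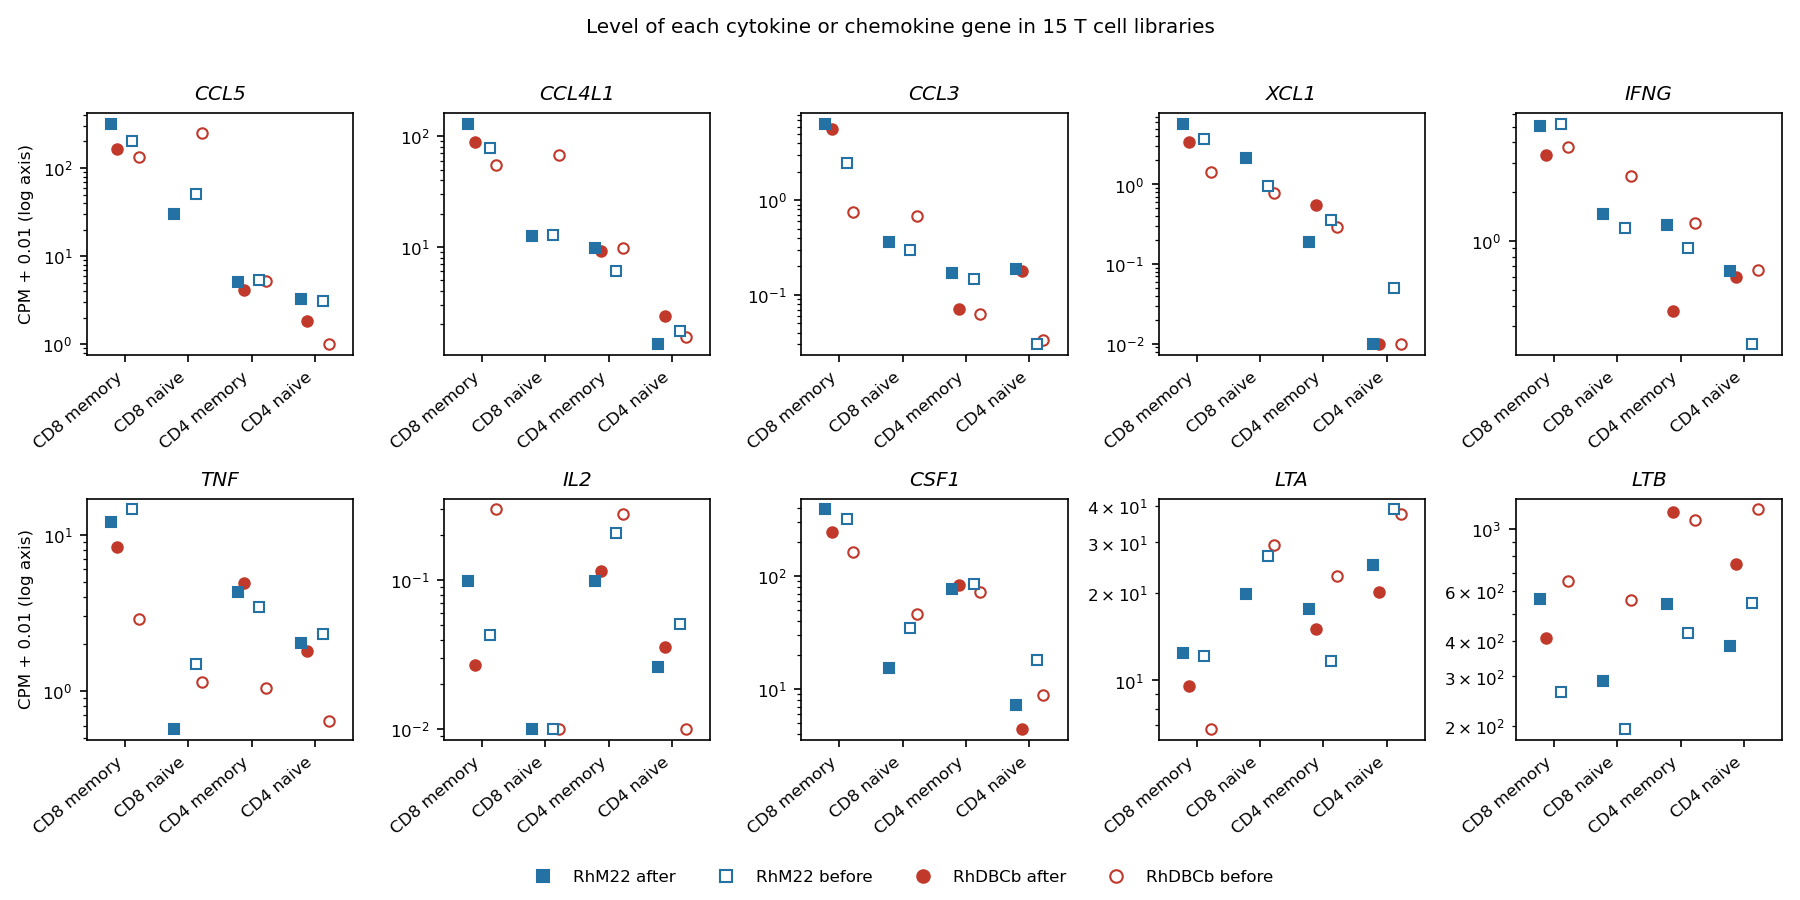
Level of the 9 genes and CCL4L1 in each of 15 libraries, as CPM plus 0.01 on a log axis, by T cell subset. Filled symbols are libraries after and open symbols before treatment, squares RhM22 and circles RhDBCb. Mean levels of CCL5, CCL4L1 and XCL1 fall from CD8 memory to CD4 naive cells, with 1 CD8 naive library of RhDBCb at 252 CPM of CCL5. CCL3 falls likewise as far as CD4 memory cells, which overlap CD4 naive cells.

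CCL5 (ENSMMUG00000054796), the chemokine RANTES, was far higher in CD8 than in CD4 cells. In CD8 memory cells it lay at 316 and 163 CPM after treatment in RhM22 and RhDBCb and at 204 and 135 CPM before. In CD8 naive cells it lay at 30.1 CPM after treatment in RhM22, and before treatment at 50.1 CPM in RhM22 and 252 CPM in RhDBCb. The 4 CD4 memory libraries held 4.12 to 5.33 CPM and the 4 CD4 naive libraries 1 to 3.29 CPM. Neither CD8 subset overlapped its CD4 counterpart. CCL5 was higher in CD8 memory than in CD4 memory cells, with a log2 difference of 5.39 (edgeR adjusted p = 0.000145, SE 0.64). CD8 naive exceeded CD4 naive cells by 5.51 (SE 0.68, adjusted p = 0.000281), and by 3.87 without the CD8 naive before library of RhDBCb (adjusted p = 1.45e-05). From after libraries alone, with 1 CD8 naive library, this difference was 3.44 and not called (adjusted p = 0.156). In a bulk library a larger share of expressing cells and more RNA per cell cannot be told apart.

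CCL5 lay higher in CD8 memory than in CD8 naive cells of RhM22 and lower in those of RhDBCb. Within the draws of RhM22, CD8 memory cells held 10.5-fold more CCL5 than CD8 naive cells after treatment and 4.07-fold more before, but in RhDBCb before treatment the ratio was 0.535. Over all libraries the log2 difference was 0.96 (SE 0.63, adjusted p = 0.351). Without the CD8 naive before library of RhDBCb it was 2.63 (adjusted p = 0.000532), and without both of its CD8 before libraries 2.68 (adjusted p = 0.000895). The former was the 1 call in 15 fits that left out 1 library, where the difference ran from 0.18 to 2.63 (adjusted p up to 0.901). Among CD4 cells the memory libraries were all above the naive ones, with a log2 difference of 1.08 (SE 0.56, adjusted p = 0.276). It was called at 1.20 without the CD8 naive before library of RhDBCb (adjusted p = 0.0125). That was again the 1 call in 15 such fits, which ran from 0.79 to 1.37 (adjusted p up to 0.489). The CD8 naive before library of RhDBCb also held the highest sum of the 7 natural killer markers among the CD8 naive libraries, 25.5 CPM against 12.6 and 16.3 CPM. Most of it was TYROBP (12.3 CPM) and KLRF1 (8.99 CPM). The markers NCAM1 and FCER1G went the other way, with no count in this library and 0.144 to 0.252 CPM in the other CD8 naive libraries. In CD8 memory cells that sum was 34.9 to 87.2 CPM, in CD4 memory cells 6.19 to 8.08 CPM and in CD4 naive cells 4.89 to 7.12 CPM. Its part in the chemokine levels was not tested.

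CCL4L1, a chemokine related to CCL4, followed the same order. In CD8 memory cells it lay at 129 and 88.4 CPM after treatment in RhM22 and RhDBCb and 77.6 and 55.4 CPM before. CD8 naive cells held 12.6 CPM after treatment in RhM22, and 12.8 and 67.9 CPM before in RhM22 and RhDBCb. CD4 memory cells held 6.05 to 9.79 CPM and CD4 naive cells 1.32 to 2.34 CPM, with no overlap. Its expected counts were not whole in any of the 15 libraries, as when reads are divided between near-identical copies, so its level is uncertain. CD8 memory exceeded CD8 naive cells in both draws of RhM22 and not in the draw of RhDBCb. The log2 difference between memory and naive was 2.34 in CD4 cells (SE 0.46, adjusted p = 0.0053). From before libraries alone it was 2.24 and not called (adjusted p = 0.121), nor was it called from after libraries alone (2.42). In CD8 cells it was 1.60 (SE 0.50, adjusted p = 0.0484), a call kept in 5 of the 15 fits that left out 1 library, where adjusted p ran from 0.000311 to 0.266, and lost without the animal term (adjusted p = 0.146). Without the CD8 naive before library of RhDBCb the difference was 2.74.

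CCL3 (ENSMMUG00000062832), the chemokine MIP-1alpha, was scarce outside CD8 memory cells. Those held 6.38 and 5.68 CPM after treatment in RhM22 and RhDBCb and 2.49 and 0.747 CPM before. CD8 naive cells held 0.35 CPM after treatment in RhM22, and 0.287 and 0.676 CPM before in RhM22 and RhDBCb. All CD4 libraries lay at 0.177 CPM or less. CD8 memory cells exceeded CD4 memory cells by 4.92 on the log2 scale (SE 0.74, adjusted p = 0.000985). They did so by 4.00 from before libraries alone, which was not called (adjusted p = 0.064). Their excess over CD8 naive cells was 2.50 (SE 0.76, adjusted p = 0.0436), and 3.55 without the CD8 naive before library of RhDBCb (adjusted p = 0.0131). The call over all 15 libraries was lost when a single library of RhM22 was dropped, CD8 naive after (adjusted p = 0.23), CD8 naive before (0.127), CD8 memory before (0.118), CD8 memory after (0.0791) or CD4 memory after (0.0611). It was also lost on dropping RhDBCb CD8 memory after (0.0881), in the fit with no animal term (0.0743), and from before libraries alone (1.52, adjusted p = 0.362). After libraries alone, with 1 CD8 naive library, gave 4.35. CD4 memory and CD4 naive cells did not differ beyond their spread (log2 difference 0.32, SE 0.74, adjusted p = 0.853).

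XCL1 (ENSMMUG00000060218), the lymphotactin that attracts XCR1-bearing dendritic cells, was almost absent from CD4 naive cells. There, 3 libraries had no count and the other, RhM22 before, had 2. CD4 memory cells held 0.177 to 0.546 CPM. CD8 naive cells held 2.14 CPM after treatment in RhM22, and 0.933 and 0.781 CPM before in RhM22 and RhDBCb. In CD8 memory cells XCL1 lay at 5.73 and 3.44 CPM after treatment in RhM22 and RhDBCb and 3.67 and 1.43 CPM before. Summed over libraries, 87 counts in CD4 memory against 2 in CD4 naive cells gave a ratio of 39.4 (exact 95% interval 10.6 to 331, counting error only), and 277 counts in CD8 naive against 2 in CD4 naive cells a ratio of 148 (lower bound 40.7). Both differences were called (adjusted p = 0.00245 and 0.000475), as was CD8 memory over CD4 memory (log2 3.21, SE 0.64, adjusted p = 0.00713). From before libraries alone none of these was called (adjusted p = 0.171, 0.071 and 0.246). CD8 memory over CD4 memory was also not called from after libraries alone (3.52, adjusted p = 0.144). CD8 memory and CD8 naive cells overlapped, with a log2 difference of 1.47 (SE 0.65, adjusted p = 0.153). XCL1 counts were not whole in 10 libraries.

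IFNG (ENSMMUG00000056408), the defining cytokine of type 1 responses, had a shallow gradient. It averaged 4.34 ± 0.921 CPM in CD8 memory cells (SD, n = 4), 1.71 ± 0.692 CPM in CD8 naive cells (n = 3), 0.944 ± 0.422 CPM in CD4 memory cells (n = 4) and 0.528 ± 0.204 CPM in CD4 naive cells (n = 4). The CD8 memory libraries, at 3.36 to 5.18 CPM, lay above every other library, and CD4 memory (0.364 to 1.28 CPM) overlapped both of its neighbours in this order. CD8 memory over CD4 memory cells was called, at 2.20 on the log2 scale (SE 0.47, adjusted p = 0.0111), and stayed so in all 15 fits that left out 1 library. It was not called from before libraries alone (2.04, adjusted p = 0.372) or after libraries alone (2.39, adjusted p = 0.247). Between memory and naive cells edgeR called no difference: it was 1.36 in CD8 (SE 0.51, adjusted p = 0.0923) and 0.83 in CD4 cells (SE 0.47, adjusted p = 0.326). DESeq2 called the CD8 difference (1.38, adjusted p = 0.0327).

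TNF (ENSMMUG00000045654), a main inflammatory cytokine, was higher in CD8 memory than in CD8 naive cells. CD8 memory cells held 12 and 8.3 CPM after treatment in RhM22 and RhDBCb and 14.5 and 2.87 CPM before. CD8 naive cells held 0.559 CPM after treatment in RhM22, and 1.48 and 1.13 CPM before in RhM22 and RhDBCb. In CD4 memory cells the values were 4.29 and 4.9 CPM after and 3.44 and 1.03 CPM before, and in CD4 naive cells 2.02 and 1.79 CPM after and 2.3 and 0.629 CPM before, each pair in the order RhM22, RhDBCb. Every CD8 memory library thus lay above every CD8 naive one, by 2.95 on the log2 scale (SE 0.61, adjusted p = 0.00494), a call kept in all 15 fits that left out 1 library. From before libraries alone the difference was 2.45 and not called (adjusted p = 0.0615). Dropping the CD8 naive before library of RhDBCb gave 3.42 (adjusted p = 0.00812). The CD4 memory and naive libraries overlapped (log2 difference 1.02, SE 0.50, adjusted p = 0.245), and so did CD8 memory and CD4 memory (1.42, SE 0.50, adjusted p = 0.123), a difference that DESeq2 called (adjusted p = 0.0407). CD8 naive and CD4 naive cells gave -0.52 (SE 0.57, adjusted p = 0.823).

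IL2 (ENSMMUG00000021093), the T cell growth factor, was barely detected. CD4 memory cells held 0.0884 and 0.106 CPM after treatment in RhM22 and RhDBCb and 0.198 and 0.266 CPM before. CD8 memory cells held 0.0172 to 0.0881 CPM in 3 libraries and 0.288 CPM in the before library of RhDBCb. CD4 naive cells held at most 0.0407 CPM and the 3 CD8 naive libraries no count, which allows up to 0.0138 CPM over the group. The 25 counts in CD8 memory cells gave a level 7.7-fold that of 3 counts over the CD8 naive libraries, taken as the floor. Of the 25 counts, 17 came from the before library of RhDBCb, and without it the other 8 counts gave 3.29-fold that floor. Both ratios take the CD8 memory counts without their counting error, so they are not lower bounds. The edgeR call for this contrast (adjusted p = 0.0438) was kept in 3 of 15 fits that left out 1 library (adjusted p 0.0342 to 0.141). It was lost without the animal term (0.0541) and with no filter (0.0538). As IL2 reached 10 counts in memory libraries only, it entered the test through them, and the call adds no support. CD4 memory and CD4 naive cells did not overlap, but the difference was not called (adjusted p = 0.226).

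CSF1 (ENSMMUG00000002680), the macrophage growth factor, was called higher in memory than in naive cells of both lineages. CD8 memory cells held 389 and 247 CPM after treatment in RhM22 and RhDBCb and 318 and 162 CPM before. CD8 naive cells held 15.5 CPM after treatment in RhM22, and 34.7 and 46.5 CPM before in RhM22 and RhDBCb. CD4 memory cells lay within 71.8 to 85.3 CPM and CD4 naive cells at 4.4 to 18.2 CPM. The memory excess was 3.28 on the log2 scale in CD8 cells (SE 0.45, adjusted p = 0.000305) and 3.18 in CD4 cells (SE 0.39, adjusted p = 0.000177). The CD8 value was 3.98 without both CD8 before libraries of RhDBCb. The CD8 step minus the CD4 step was 0.10 (SE 0.53, 95% interval -0.94 to 1.14, adjusted p = 1). CD8 memory cells exceeded CD4 memory cells by 1.80 (SE 0.37, adjusted p = 0.0077). From before libraries alone that excess was 1.56 and not called (adjusted p = 0.0672). The excess of CD8 naive over CD4 naive cells was 1.70 (SE 0.39, adjusted p = 0.0276). Without the CD8 naive before library of RhDBCb that last value was 1.15 (adjusted p = 0.264). Its call was also lost without the CD4 naive before (0.0758) or after (0.0767) library of RhDBCb. The same held without the CD8 naive before (0.0561) or CD4 naive after (0.0756) library of RhM22, or the animal term (0.0767). From before libraries alone it was 1.69 and not called (adjusted p = 0.0537). After libraries alone, with 1 CD8 naive library, gave 1.23.

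LTA (ENSMMUG00000008843), the soluble lymphotoxin, ran the other way and was the 1 gene of the 9 called lower in memory cells. CD8 memory cells held 12.4 and 9.57 CPM after treatment in RhM22 and RhDBCb and 12.1 and 6.77 CPM before. CD8 naive cells held 19.9 CPM after treatment in RhM22, and 26.9 and 29.4 CPM before in RhM22 and RhDBCb. The libraries did not overlap, as for 9.6% of all tested genes in the lower direction. The log2 difference was -1.23 (SE 0.29, adjusted p = 0.0107). On dropping the CD8 naive before library of RhDBCb the difference was -1.11 and the call was lost (adjusted p = 0.0569). From after libraries alone, with 1 CD8 naive library, it was -0.81. CD4 memory cells averaged 16.8 ± 4.79 CPM and CD4 naive cells 30.5 ± 9.28 CPM (SD, n = 4 each), a log2 difference of -0.82 (SE 0.26, adjusted p = 0.0736). It was called by DESeq2 (adjusted p = 0.0277) and by edgeR on dropping RhDBCb CD8 memory before (adjusted p = 0.0376). LTA was lower in memory than in naive cells in all 7 within-draw comparisons, a pattern whose share over all tested genes was not counted.

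LTB (ENSMMUG00000008849), which lies on the other side of TNF from LTA in the RefSeq table, overlapped between subsets in all 4 contrasts, none of which was called over all libraries. CD4 memory cells held 542 and 1150 CPM after treatment in RhM22 and RhDBCb and 427 and 1070 CPM before. CD8 memory cells held 562 and 409 CPM after and 265 and 653 CPM before, in the same order. In CD4 cells every library of RhDBCb lay above every library of RhM22. The largest subset difference was CD8 naive over CD4 naive, at -0.90 (SE 0.30, adjusted p = 0.169). CD8 memory over CD4 memory gave -0.63 (SE 0.27, adjusted p = 0.228), CD8 memory over CD8 naive 0.41 (SE 0.30, adjusted p = 0.402) and CD4 memory over CD4 naive 0.14 (SE 0.27, adjusted p = 0.822). On dropping RhM22 CD8 memory after, CD8 memory over CD4 memory was called at -1.03 (adjusted p = 0.0141) and CD8 naive over CD4 naive at -0.88 (adjusted p = 0.0455).

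**Figure D2:**
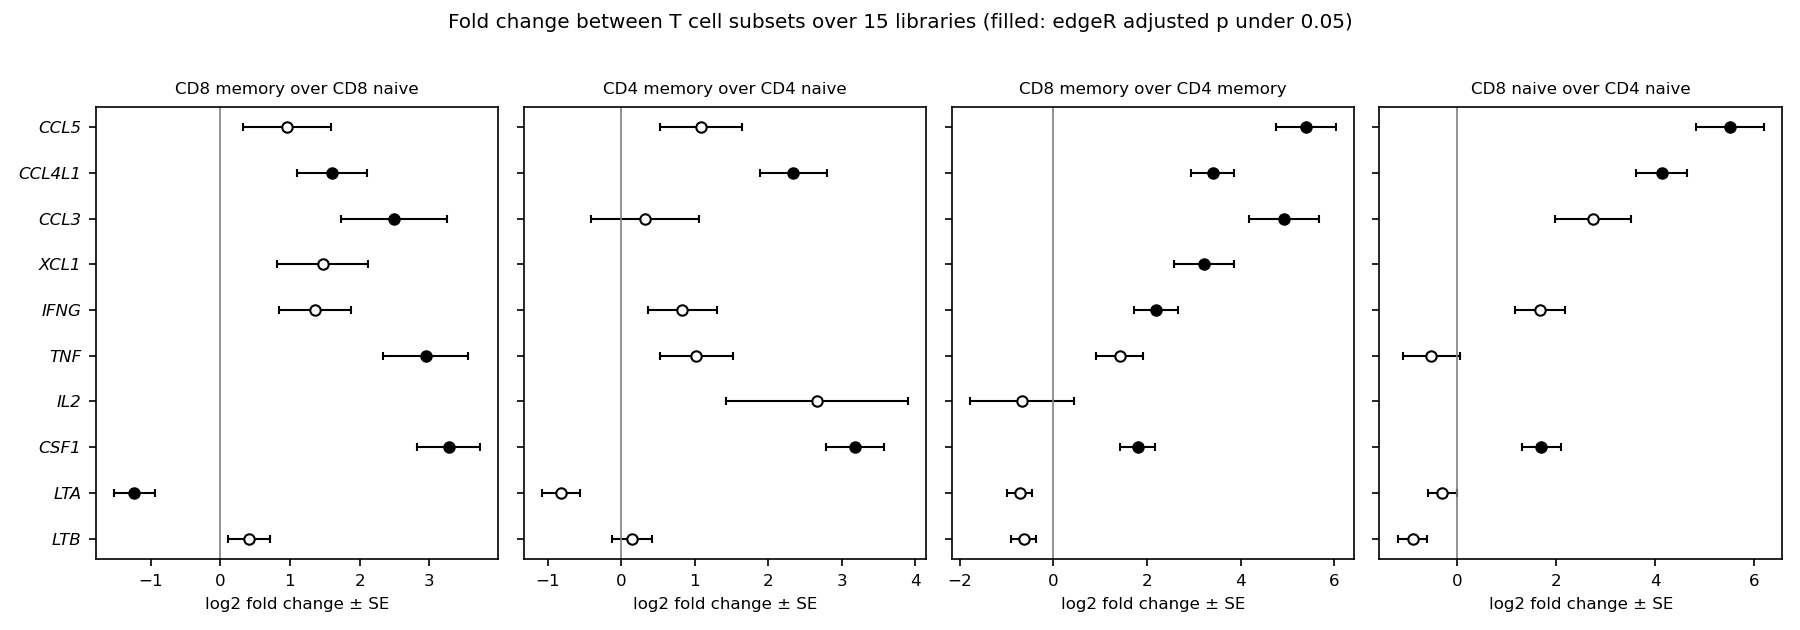
Log2 fold change between subsets for the 9 genes and CCL4L1, with bars of 1 SE, from the model over 15 libraries; filled points have an edgeR adjusted p under 0.05. CSF1 lies right of 0 in all 4 panels and LTA left of 0. Folds of XCL1 against CD4 naive cells and of IL2 involving CD8 naive cells are not drawn because those libraries hold few or no counts.

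Counted by contrast, CD8 memory over CD8 naive called 4 of the 9 higher (CCL3, TNF, IL2 and CSF1) and 1 lower (LTA), where 13.5% of all tested genes were called, 8.1% higher and 5.39% lower. CD4 memory over CD4 naive called 2 of 9, XCL1 and CSF1, both higher, with 8.38% of all genes called, 5.22% higher. CD8 memory over CD4 memory called 5 of 9, CCL5, CCL3, XCL1, IFNG and CSF1, all higher, with 6.35% of all genes called, 3.76% higher. CD8 naive over CD4 naive called 3 of 9, CCL5, XCL1 and CSF1, all higher, with 2.79% of all genes called, 1.54% higher. The median log2 difference of the 9 was 1.47, 1.02, 1.80 and 1.67 in these contrasts, where that of all tested genes lay between -0.03 and 0.03. The 9 were chosen with such values known, and IL2, XCL1 and CCL3 are lowest in some subsets, so these counts describe the list only. IL2 reached 10 counts in memory libraries only and passed the filter through these, so its call adds no support to the first count.

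Whether the memory step differed between lineages was tested directly, as the CD8 step minus the CD4 step. None of the 9 was called (edgeR, 0.0405% of all genes called), and 2 of them, TNF and XCL1, had an unadjusted p under 0.05, as did 6.8% of all genes. DESeq2 also called none of the 9. TNF had the larger step in CD8 cells, with a difference of 1.93 (SE 0.75, adjusted p = 0.657), and CCL3 gave 2.18 (SE 1.10, adjusted p = 0.759). XCL1 had the larger step in CD4 cells, but that value rests on the 2 counts of the CD4 naive libraries. For CCL5 the difference was -0.12 (SE 0.85, 95% interval -1.78 to 1.54), and 1.49 without both CD8 before libraries of RhDBCb (adjusted p = 0.414).

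**Figure D3:**
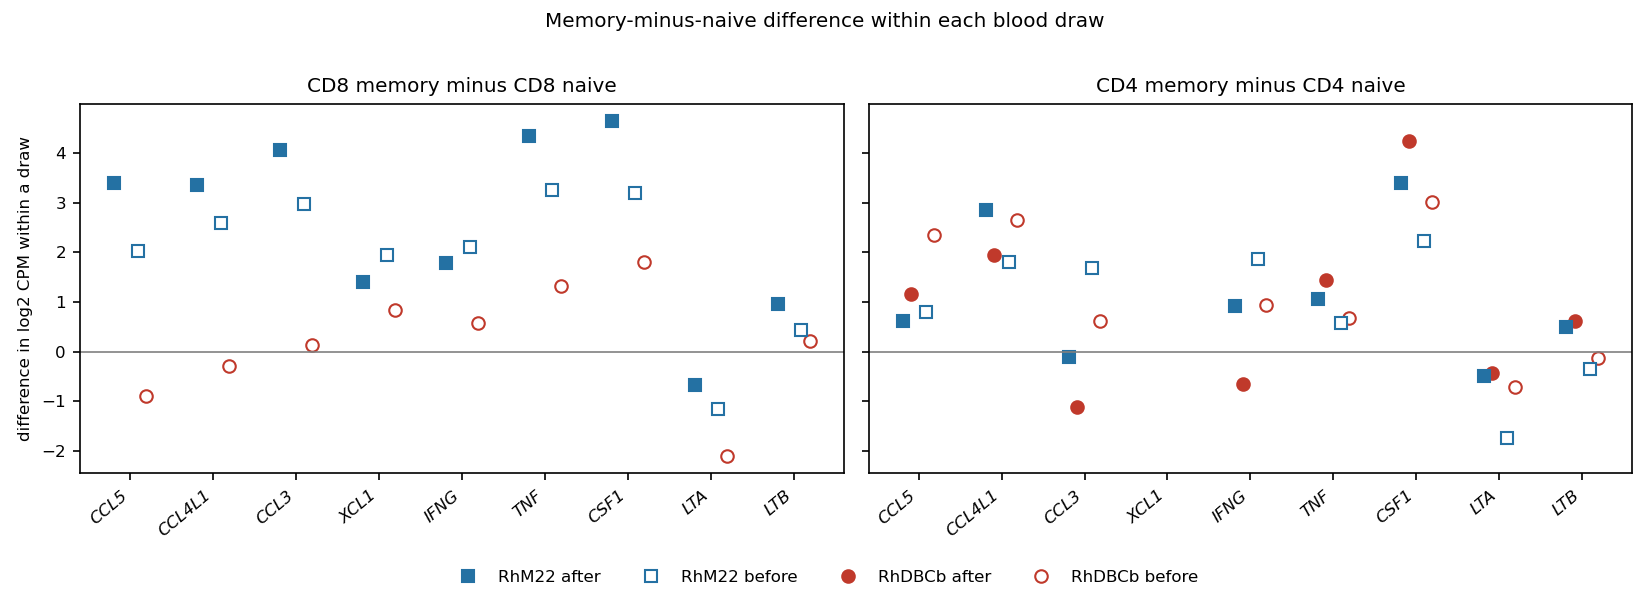
Difference in log2 CPM between memory and naive libraries of the same blood draw, for CD8 cells (3 draws) and CD4 cells (4 draws); symbols are as in the plot of levels. In CD8 cells the draw of RhDBCb before treatment gives -0.90 for CCL5 and -0.29 for CCL4L1, where both draws of RhM22 give 2.02 to 3.39. IL2, and XCL1 for CD4 cells, are not drawn because the naive libraries hold few or no counts.

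The question of the study was what cyclodextrin treatment changed, so each gene was then compared after against before. Over all subsets none of the 9 was called (edgeR; 1 had an unadjusted p under 0.05, and DESeq2 also called none), where 0.00675% of all tested genes were called and 10.3% had an unadjusted p under 0.05. The gene with the smallest p was CCL3, at 1.19 (log2; SE 0.53, unadjusted p = 0.043, adjusted p = 0.467), which was higher after treatment in 7 of 7 before-and-after pairs, a pattern that 2.02% of all tested genes showed. In CD8 memory cells CCL3 lay at 6.38 CPM after against 2.49 CPM before in RhM22, and at 5.68 CPM after against 0.747 CPM before in RhDBCb. In CD4 naive cells it lay at 0.177 CPM after against 0.0204 CPM before in RhM22 and at 0.167 CPM after against 0.0233 CPM before in RhDBCb, the before values being 1 count each. The other 3 pairs differed by 0.12 to 0.26 on the log2 scale.

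Apart from IL2, which was too low to compare, the other members had no shared direction over treatment. Log2 differences over all subsets were 0.52 for XCL1 (SE 0.49), 0.42 for TNF (SE 0.39), 0.05 for LTB (SE 0.20), -0.07 for IFNG (SE 0.36), -0.16 for CCL5 (SE 0.43), -0.27 for LTA (SE 0.20) and -0.44 for CSF1 (SE 0.28), with adjusted p between 0.599 and 0.967. CCL4L1 gave 0.13 (SE 0.33, adjusted p = 0.925). The intervals leave sizeable changes possible: for CCL5 the 95% interval was -1.01 to 0.68. CCL5 is also abundant in platelets, whose 11 markers summed to 31.3 to 102 CPM after and 23.8 to 61.4 CPM before in RhM22, and to 15.7 to 29.8 CPM after and 5.38 to 7.4 CPM before in RhDBCb. Their part in the CCL5 values was not tested.

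**Figure D4:**
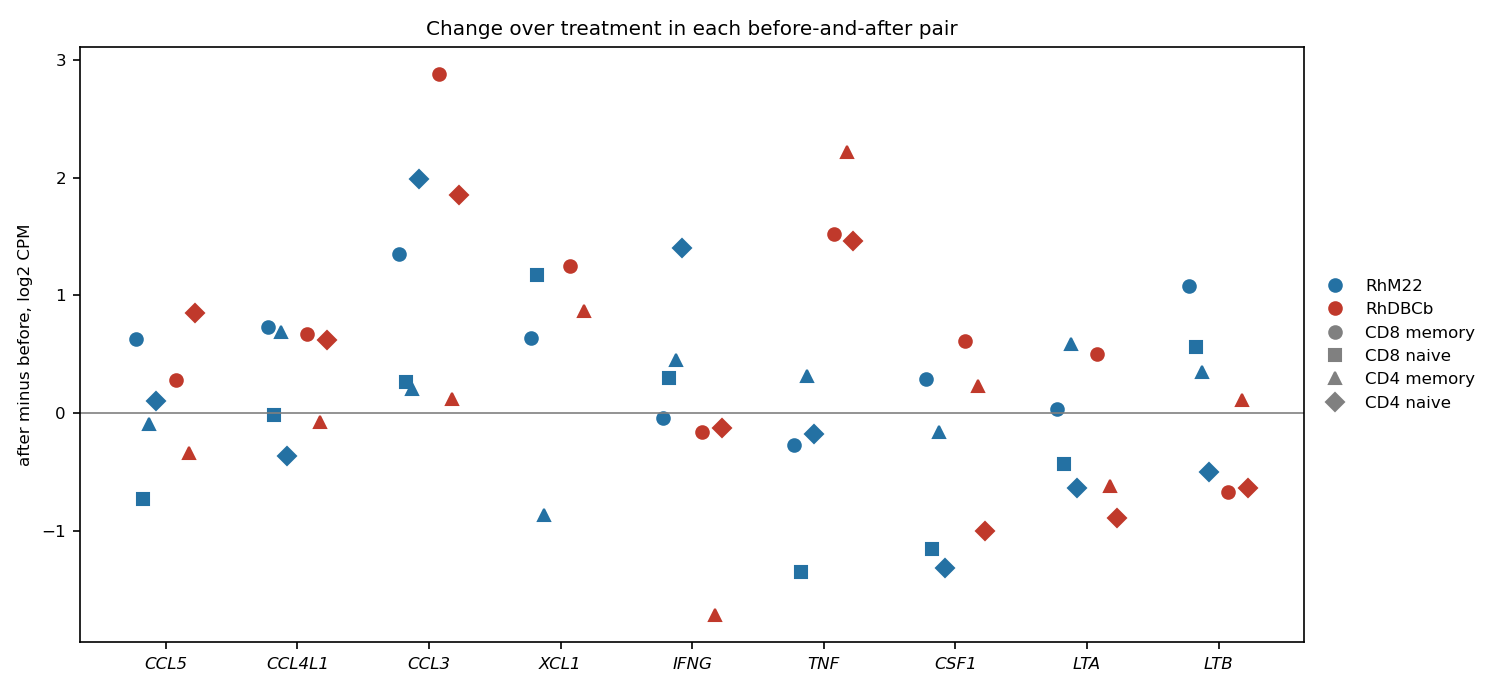
Change in log2 CPM, after minus before, in each of 7 pairs of libraries from the same animal and subset (colour, animal; symbol, subset). CCL3 lies above 0 in all 7 pairs, and TNF above 0 in all 3 pairs of RhDBCb and in 1 of 4 of RhM22. IL2 and the CD4 naive pairs of XCL1 are not drawn because of their low counts.

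Within single subsets no gene of the 9 was called over treatment, and 0% of all tested genes were called in each of the 4 subsets. The unadjusted share under 0.05 was 1.46% in CD8 memory, 0.999% in CD8 naive, 1.55% in CD4 memory and 4.07% in CD4 naive cells. Of the 9, that unadjusted p was reached by CCL3 in CD8 memory cells, by CSF1 and CCL5 in CD8 naive cells, by none in CD4 memory cells and by CSF1 and CCL3 in CD4 naive cells, and DESeq2 called none of them. CSF1 had the smallest unadjusted p among the 9 in both naive subsets. In CD4 naive cells it lay at 7.27 CPM after against 18.2 CPM before in RhM22 and at 4.4 CPM after against 8.86 CPM before in RhDBCb, a log2 difference of -1.19 (SE 0.35, unadjusted p = 0.00539, adjusted p = 0.897). In CD8 naive cells it lay at 15.5 CPM after against 34.7 CPM before in RhM22, with a fitted difference of -1.66 (SE 0.46, unadjusted p = 0.004, adjusted p = 1) that also draws on RhDBCb before. In the memory subsets the 4 pairs differed by -0.16 to 0.61. CCL5 in CD8 naive cells had a fitted difference of -2.59, which also draws on RhDBCb before, at 252 CPM. The pair of RhM22 lay at 30.1 CPM after against 50.1 CPM before, a log2 difference of -0.73. CCL3 gave 2.90 in CD4 naive cells (SE 1.03, adjusted p = 0.897) and 2.02 in CD8 memory cells (SE 0.78, adjusted p = 1).

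The animals were compared because they could have changed differently, with 1 draw per animal and time. None of the 9 was called in the change of RhM22 minus that of RhDBCb (edgeR), where 4.58% of all tested genes were called; 2 of the 9, TNF and LTB, had an unadjusted p under 0.05, as did 20.2% of all genes, and DESeq2 called none. TNF lay at 4.29 CPM after against 3.44 CPM before in CD4 memory cells of RhM22 and at 4.9 CPM after against 1.03 CPM before in those of RhDBCb. It was higher after treatment in 1 of 4 pairs of RhM22 and in 3 of 3 of RhDBCb. The difference was -1.61 (SE 0.62, adjusted p = 0.158), and without the CD8 naive before library of RhDBCb, which has no after partner, it was -2.16 (adjusted p = 0.0208). In RhM22 alone, where 0.0608% of all genes were called, TNF gave -0.26 (SE 0.41, adjusted p = 1), and in RhDBCb alone 1.35 (SE 0.49, adjusted p = 0.0979), where 10.1% of all genes were called. The RhDBCb value was called by DESeq2 (adjusted p = 0.0309) and by edgeR without its CD8 naive before library (0.0108) or the CD8 naive after library of RhM22 (0.0244). The 19 early response markers summed to 9120 to 15900 CPM after and 8370 to 14700 CPM before in RhM22, and to 8230 to 14500 CPM after and 16900 to 39600 CPM before in RhDBCb, where TNF was lower before. Their part in the TNF values was not tested. IFNG was lower after treatment in 3 of 3 pairs of RhDBCb and higher in 3 of 4 of RhM22 (difference 1.21, SE 0.63, adjusted p = 0.308).

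The receptors of these ligands were followed as a list of 14, of which 13 were tested. Counts of this and the next lists stand against the shares of all tested genes called higher and lower, which were 8.1% and 5.39% for CD8 memory over CD8 naive, 5.22% and 3.16% for CD4 memory over CD4 naive, 3.76% and 2.59% for CD8 memory over CD4 memory, and 1.54% and 1.26% for CD8 naive over CD4 naive. CD8 memory over CD8 naive called 5 higher and 0 lower, with a median log2 difference of 0.98 against 0.03 for all genes. TNFRSF1A, a receptor of TNF and LTA, was higher in CD8 memory than in CD8 naive cells by 1.51 (SE 0.39, adjusted p = 0.0193), and was also called higher in CD4 memory than in CD4 naive cells (adjusted p = 0.0483). IL2RG, the shared chain of the IL2 receptor family, was higher in CD4 memory than in CD4 naive cells by 0.47 (SE 0.12, adjusted p = 0.0248). IL2RA, the inducible IL2 receptor chain, was higher in CD8 memory than in CD8 naive cells by 3.18 (SE 0.66, adjusted p = 0.00504) and lower in CD8 naive than in CD4 naive cells by 2.90 (SE 0.64, adjusted p = 0.0228). IFNGR2, the signalling chain of the IFNG receptor, was lower in CD8 memory than in CD4 memory cells, at 35.6 ± 13.3 and 85.5 ± 7.7 CPM (log2 difference -1.30, SE 0.21, adjusted p = 0.00147). CD4 memory over CD4 naive called 4 receptors higher and 0 lower, CD8 memory over CD4 memory 1 higher and 1 lower, and CD8 naive over CD4 naive 2 higher and 1 lower. Treatment over all subsets called none of the 13, with a median of 0.19. In RhM22 alone none of the 13 was called. In RhDBCb alone 4 of the 13 rose after treatment and 0 fell, where 5.49% of all genes were called higher and 4.62% lower, among them TNFRSF1B, a TNF receptor, by 1.17 (SE 0.15, adjusted p = 0.00123).

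Of the 24 regulators, transcription factors, cytokine receptors and RNA-decay proteins known to act on these genes, 11 were higher and 0 lower in CD8 memory than in CD8 naive cells, 8 higher and 1 lower in CD4 memory than in CD4 naive cells, 14 higher and 1 lower in CD8 memory than in CD4 memory cells, and 6 higher and 1 lower in CD8 naive than in CD4 naive cells. EOMES, a T-box factor that drives IFNG, was higher in CD8 memory than in CD4 memory cells by 2.94 (SE 0.33, adjusted p = 9.62e-05) and higher in CD8 naive than in CD4 naive cells by 3.66 (SE 0.37, adjusted p = 4.32e-05). IL18R1 and IL18RAP, the chains of the receptor for IL18, which induces IFNG, exceeded CD8 naive levels in CD8 memory cells by 3.33 (SE 0.32) and 3.62 (SE 0.51). IL12RB2, of the IL12 receptor, was at 4.68 ± 3.27 CPM in CD4 memory and 0.068 ± 0.0908 CPM in CD4 naive cells (log2 difference 6.14, SE 0.62). HOPX, a homeodomain cofactor of long-lived effector cells, was higher by 3.03 in CD8 memory than in CD8 naive cells (SE 0.50) and by 4.30 in CD4 memory than in CD4 naive cells (SE 0.48). NFATC1, a factor of T cell receptor signalling, was lower in CD8 than in CD4 cells by 1.38 in both memory (SE 0.29) and naive (SE 0.33) subsets. IRF1 was lower in CD4 memory than in CD4 naive cells by 0.72 (SE 0.15). Treatment over all subsets called none of the 24, with a median of -0.16 against 0.01 for all genes. In RhM22 alone 0 were called higher and 1 lower, and in RhDBCb alone 6 higher and 2 lower. Among the latter animal's were ZC3H12A, an RNase that degrades cytokine transcripts, at 1.15 (SE 0.14, adjusted p = 0.000863), and HOPX at -1.42 (SE 0.40, adjusted p = 0.0384). HOPX was uneven, at 142 to 593 CPM over the CD8 memory libraries. The regulators were not refitted without the CD8 before libraries of RhDBCb.

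Among 27 tested genes of other T cell cytokines and TNF family ligands, CCL4L1 among them, CD8 memory over CD8 naive called 11 higher and 0 lower, CD4 memory over CD4 naive 4 higher and 1 lower, CD8 memory over CD4 memory 5 higher and 1 lower, and CD8 naive over CD4 naive 3 higher and 2 lower. TNFSF14, the ligand LIGHT, averaged 29.3 ± 6.92 CPM in CD8 memory cells, 3.21 ± 0.359 CPM in CD8 naive cells, 5.43 ± 1.59 CPM in CD4 memory cells and 0.458 ± 0.503 CPM in CD4 naive cells, and was called in all 4 contrasts. FASLG, the death ligand, was called higher in the same 4, at 2.94 for CD8 memory over CD8 naive (SE 0.49) and 2.98 for CD8 memory over CD4 memory (SE 0.44). CD40LG, the helper signal to B cells, was lower in CD8 than in CD4 cells by 2.41 among memory (SE 0.50) and by 5.92 among naive subsets (SE 0.67), and higher in CD8 memory than in CD8 naive cells by 3.20 (SE 0.59). AREG, an epidermal growth factor receptor ligand, was lower in CD4 memory than in CD4 naive cells by 3.42 (SE 0.65). None of the 27 was called over treatment in all subsets, with a median of -0.01, and none in RhM22 alone. In RhDBCb alone 1 was called higher, TNFSF8, the ligand of CD30, at 0.90 (SE 0.19, adjusted p = 0.0103), and 1 lower.

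Across the 15 libraries the chemokines, IFNG and CSF1 moved together. Pearson's r of log2 CPM was 0.88 between CCL5 and each of CCL3, XCL1 and IFNG, 0.94 between CCL5 and CCL4L1, and 0.75 between TNF and CSF1. It was 0.79 between XCL1 and each of CCL3 and IFNG. With the chemokines and IFNG, CSF1 gave from 0.68 (CCL3) to 0.85 (CCL4L1). LTA ran against CSF1 at -0.72. Genes most like each member, among 8289 or 8290 genes with a symbol and a mean of at least 5 CPM, were KLRD1 (0.974), NKG2D (0.970) and GZMM (0.970) for CCL5, and CST7 (0.981), KLRG1 (0.972) and SLAMF7 (0.969) for CCL4L1. They were CPE (0.966), NKG7 (0.959) and KLRG1 (0.957) for XCL1, TGFBR3 (0.962) for CSF1, and PARP8 (0.936), PPM1M (0.929) and STIL (0.924) for IFNG. For CCL3 they were CFAP94 (0.951), PTPN22 (0.930) and PPID (0.925), for TNF ZNF276 (0.921), ITGA5 (0.918) and DYNLL1 (0.918), for LTA RBMX (0.941), PIAS2 (0.915) and PIGM (0.914), and for LTB LMBR1L (0.953), DNLZ (0.945) and IGFLR1 (0.945). These values are descriptions: the libraries share 2 animals and 4 draws, and differences between subsets enter every value.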

How the data were processed

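The authors deposited expected counts per gene, not scaled, and FPKM values, scaled by the authors to gene length and to a library factor whose origin is not given in the sources used here. The submitters' processing notes name RSEM 1.3.3, STAR 2.7.6a and cutadapt 1.18, with builds rheMac10 and Mmul_10. Per the labels' protocols RNA was prepared with the RNeasy Micro kit and SMART-Seq v4. This kit keeps no strand, so reads of overlapping genes on opposite strands cannot be told apart.

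Rounding the expected counts to whole numbers changed no library total by more than 26.1 counts. Symbols were read from the count table for 23407 genes and from a gene name table for 933 more. Genes were filtered with edgeR 4.0.16 (filterByExpr, minimum count 10) in R 4.3.3, scaled by TMM and tested with the quasi-likelihood F test on all 15 libraries, with Benjamini-Hochberg adjusted p across the whole table and a call at an adjusted p under 0.05. Subset contrasts and treatment over all subsets came from a model of subset, animal and time, single subsets from 8 subset-by-time groups plus animal, and the animals' difference from an animal-by-time term. The scripts were tested on simulated data. The SE is the absolute log2 fold change divided by the square root of F, and a 95% interval is 1.96 SE either side. FPKM was used only to compare levels between genes. Differences of log2 CPM within pairs or draws used a prior count of 2. A count was taken as whole within 1e-06.

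The animal's name in the labels pairs the libraries: deviations from group means correlated at 0.195 to 0.501 between libraries of 1 animal over 7 groups. Intervals of counts cover counting error only, and the floor of 3 counts covers only that of the group without counts. Alternatives were RLE scaling, DESeq2 1.42.0, no filter, no animal term, a single time, and leaving out each library. Chosen after seeing the data were the fit without both CD8 before libraries of RhDBCb and the change within each animal. The genes and lists were chosen with earlier results of these data known. All 9 genes are named, and list genes were up to 3 per direction with the largest called fold change at a mean of at least 5 CPM. The markers given for single libraries were picked after their values were seen. Results of 3 further genes under these rules are not reported here. No sequence or coordinate is given, since no genome of this build was used.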

Additional observations from a re-analysis of the deposited data

Results flagged for a closer look

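In 3 of 30 groups of 4 libraries for the 9 genes and CCL4L1, 1 library lay apart from the others by Dixon's criterion, which chance meets in about 1 in 20 groups. CCL4L1 in CD4 memory cells of RhM22 before treatment was at 6.05 CPM, below 9.16 to 9.79 CPM in the other libraries. IFNG in CD4 naive cells of RhM22 before treatment was at 0.224 CPM, below 0.592 to 0.653 CPM. XCL1 in CD4 naive cells of RhM22 before treatment was at 0.0407 CPM, which is 2 counts, where the other libraries had 0.

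The change of RhM22 minus that of RhDBCb was called for 2 of the 13 receptors tested, both lower. Of the 24 regulators, 1 was called higher and 4 lower. Over all tested genes 4.58% were called in this comparison, 1.81% higher and 2.77% lower. The change is given here for some of these receptors and regulators, each from 1 draw per animal and time. It was -1.46 for IL2RB, a chain of the IL2 receptor (edgeR adjusted p = 0.0394), and -1.38 for TNFRSF1B, a TNF receptor (0.0043). It was -1.52 for STAT4, which carries IL12 signals (0.00237). ZC3H12A, an RNase that degrades cytokine transcripts, gave -1.74 (0.000813), and NFATC3 gave 1.20 (0.0132).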

How the results depend on the processing

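Numbers of the 9 genes called under the alternatives were as follows. For CD8 memory over CD8 naive the count was 5, and 3 with no replicate block, 2 from before libraries alone, 2 from after libraries alone, 3 to 5 when 1 library was left out, 6 with DESeq2, which added IFNG, and 4 with no filter, which lost IL2 (adjusted p = 0.0538). For CD4 memory over CD4 naive it was 2, and 1 from before libraries alone, 4 without both CD8 before libraries of RhDBCb, 2 to 3 without 1 library and 3 with DESeq2, which added LTA. For CD8 memory over CD4 memory it was 5, and 1 from before, 3 from after libraries, 5 to 6 without 1 library and 6 with DESeq2, which added TNF. For CD8 naive over CD4 naive it was 3, and 5 with DESeq2, which added CCL3 and IFNG, 1 from before, 1 from after libraries and 2 to 4 without 1 library. For RhM22 minus RhDBCb it was 0, and 1 without both CD8 before libraries of RhDBCb and 0 to 1 without 1 library. For RhDBCb it was 0, and 1 with DESeq2 and 0 to 1 without 1 library. No value of a single gene whose sign turned was called, here or in the comparison it belongs to. Signs turned for CCL3 in CD4 memory over naive (-0.70 after only), LTB there (-0.23 before only), TNF in CD8 over CD4 naive (0.04 before only), and LTB over treatment (-0.16 with no replicate block). In the CD8 minus CD4 memory step they turned for CCL5 (2.24 after only, 1.49 without both libraries), CCL4L1 (0.56 and 0.53 likewise), CCL3 (-0.47 before only), IFNG (-0.03), CSF1 (-0.13) and LTB (-0.14 after only), and in RhM22 minus RhDBCb for CCL5 (-0.06 without both libraries). The cause was not tested. With 1 library left out, values crossing 0 ranged as follows. In the memory step they were CCL5 -1.02 to 1.43, CCL4L1 -1.35 to 0.41, CSF1 -0.39 to 0.61 and LTB -0.15 to 0.47. Over treatment they were CCL5 -0.39 to 0.21, CCL4L1 -0.08 to 0.41, IFNG -0.30 to 0.17 and LTB -0.14 to 0.19. In RhM22 minus RhDBCb they were CCL5 -0.16 to 1.24, CCL4L1 -0.07 to 0.99, CCL3 -1.29 to 0.44 and CSF1 -0.68 to 0.11. CCL3 in CD4 memory over naive gave -0.10 to 0.75, TNF in CD8 over CD4 naive -1 to 0.15, and TNF in RhM22 -0.45 to 0.11. Over all genes, calls numbered 1999, 1242, 941 and 414 in the 4 subset contrasts in this order, 3108, 2183, 1670 and 935 with DESeq2, and 941, 502, 384 and 196 with no replicate block. Before libraries alone gave 484, 165, 143 and 120, and after libraries alone 143, 198, 159 and 56. For the CD8 contrast 1144 were called without both CD8 before libraries of RhDBCb. Treatment called 1 gene over all subsets (177 with DESeq2, 0 with no replicate block), 9 in RhM22 (248 with DESeq2), 1499 in RhDBCb (2519) and 679 in their difference (1671, and 1393 without both libraries). The memory step difference called 6 (238 with DESeq2, 1 with no replicate block, 16 without both libraries, 0 at either time alone). No fit without the animal was possible for comparisons of the animals. CD8 naive treatment has no value without its 1 after library. Depth limits IL2 (71 counts in all), XCL1 in CD4 naive cells and CCL3 in CD4 cells.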
